A study of Mus musculus with 10 samples.

Results

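The axon guidance genes are the ligands and receptors of 4 signalling systems, semaphorins with plexins and neuropilins, Slits with Robos, netrins with the receptors Dcc and Unc5, and ephrins with Eph receptors. They were taken by gene symbol from the protein-coding genes of a count table of mouse femur, and 69 genes of 18884 protein-coding and 38962 genes in all matched. They comprised 20 semaphorins, 9 plexins, 2 neuropilins, 3 Slits, 4 Robos, 4 netrins, 5 netrin receptors, 9 EphA receptors, 5 EphB receptors, 5 ephrin-A ligands and 3 ephrin-B ligands. The RNA came from male C57BL/6J mice, 5 young mice of 2 months and 5 aged mice of 22 months, with 1 library per mouse and no further allele or treatment named for either group. RNA came from pulverized femur cortex that had been flushed of marrow, so each library holds RNA of every cell type left in that bone. Young mice were bought from the Jackson Laboratory and aged mice came from the colony of the National Institute of Aging and were kept to their final age in house, so age and supplier cannot be told apart. The libraries held 31788232 to 45075335 counts.

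Axon guidance molecules were named for steering growing nerve fibres, and they work as cues that attract or repel cells. Semaphorins signal through plexins, with neuropilins as co-receptors for the secreted class 3. Slits are secreted and bind Robos, netrins are secreted and bind Dcc and Unc5 receptors, and ephrins are held on one cell while their Eph receptors, which are tyrosine kinases, sit on its neighbour. In bone the same genes are used by cells that are not neurons, for example Sema3a by osteoblasts, Sema4d and its receptor Plxnb1 between osteoclasts and osteoblasts, Efnb2 and Ephb4 between the same cells, and Slit3 with Robo1 in bone formation and vessel growth.

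In aged bone 9 members were lower and 3 were higher than in young bone, and 51 other tested members did not pass the test. The 9 lower members were the Eph receptors Epha3, Epha4 and Ephb2, the ephrin Efna5, the netrin receptors Dcc and Unc5c, the Slit receptor Robo1, the semaphorin Sema3d and the plexin Plxna2. The 3 higher members were Sema4a, Sema4f and Plxnc1. The test was the quasi-likelihood test of edgeR, and lower or higher refers to genes whose p, adjusted by Benjamini-Hochberg over the 22088 genes left by a filter on low counts, did not exceed 0.05. Of the 69 members 63 were left by that filter. Lower members were 14.3% of the 63, beside 3.61% of all tested genes, and higher members were 4.76%, beside 3.68%. The median log2 fold change of aged over young was -0.05 in the members and 0.01 in all tested genes. The groups were fully apart in 9 members, 14.3% of those tested, beside 7.8% of all tested genes. Of the 33 tested ligands 2 were lower and 2 higher, and of the 30 tested receptors 7 were lower and 1 higher. In whole bone, fewer cells of a type and less RNA per cell cannot be told apart.

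**Figure D1:**
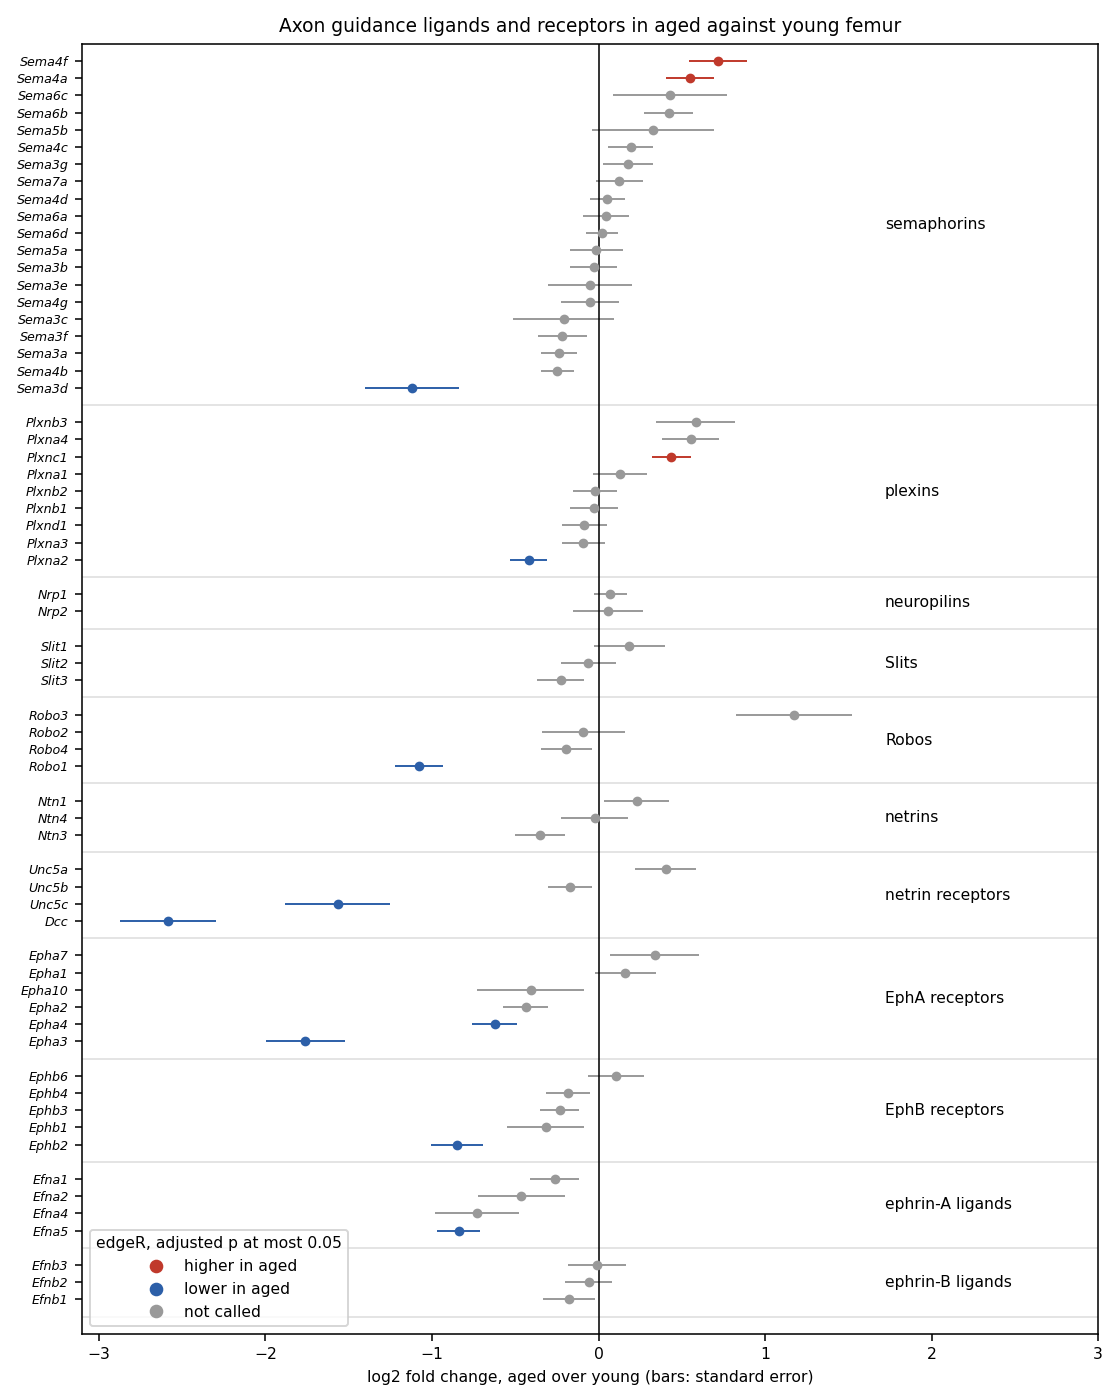
Log2 fold change of aged over young bone (x axis, bars are standard errors) for the 63 tested members, grouped by family. Blue points mark the 9 members called lower, red points the 3 called higher, and Robo3 at 1.17 is the uncalled member farthest to the right.

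Several markers of the cells that bone can hold were called as well. Osteoblast markers took 5.002 to 8.32% of counts in young and 1.58 to 4.23% in aged mice, with no overlap between the groups (exact two-sided permutation test, p = 0.00794, adjusted p = 0.127 over 16 lists), and 6 of 12 were called lower. That p is the smallest the design allows, so a single list could not by itself reach an adjusted p of 0.05 over 16 lists. Chondrocyte markers took 0.111 to 0.233% of counts in young and 0.0591 to 0.140% in aged mice (exact permutation test, p = 0.0238, adjusted p = 0.152), and 6 of 10 tested were called lower, among them Acan, Hapln1 and Col9a2 of cartilage matrix. Col11a2 and Col2a1, the chondrocyte markers with the highest levels, were not called (adjusted p = 0.0587 and 0.445 in edgeR). Osteoclast markers took 0.157 to 0.252% of counts in young and 0.0687 to 0.189% in aged mice (exact permutation test, p = 0.0397, adjusted p = 0.152), with 1 of 10 called lower. Marrow stroma markers took 0.0707 to 0.101% of counts in young and 0.0456 to 0.0872% in aged mice (exact permutation test, p = 0.0476, adjusted p = 0.152), with 0 of 8 called. Osteocyte markers took 0.0445 to 0.0674% of counts in young and 0.0194 to 0.0765% in aged mice, with 1 of 8 called higher and 1 lower. Endothelial markers took 0.0550 to 0.0884% of counts in young and 0.0564 to 0.0824% in aged mice, with 1 of 12 called lower. Schwann cell markers, which stand for the sheaths of nerves, took 0.00809 to 0.0123% of counts in young and 0.00860 to 0.0148% in aged mice. Of 10 neuron markers 4 passed the filter on low counts, and the list took 0.000392 to 0.000505% of counts in young and 0.000286 to 0.000598% in aged mice. Skeletal muscle markers took 2.73 to 6.35% of counts in young and 3.78 to 8.89% in aged mice. Of 10 B cell and plasma cell markers 4 were called lower and 1 higher, and of 10 T cell markers, with p = 0.0476 for their share (exact permutation test, adjusted p = 0.152), 3 were called higher. With the gene Gm26917 left out of the totals, unadjusted p was 0.0714 for osteoclast and 0.0794 for marrow stroma markers (exact permutation tests). By the same test it was 0.00794 for osteoblast, 0.0397 for chondrocyte and 0.0238 for T cell markers. None of the markers was at 0 in all libraries. The part of these cells in the changes of the members was not tested. With the muscle markers as a covariate 9 members were called lower and 3 higher, and with the marrow cell markers 9 and 5. With the muscle covariate Sema3d was no longer called (adjusted p = 0.0755 in edgeR) and Epha2 was (0.0464). The marrow covariate held markers of B and plasma cells, T cells, neutrophils and red cell precursors. Osteoblast and chondrocyte markers were in neither covariate, so these fits cannot address the part of those cells.

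The members ranged in level from 0.00551 CPM per kb for Epha6 to 26.3 CPM per kb for Plxnd1, where CPM are counts scaled by library size and TMM (edgeR cpm). SE is an approximate standard error, here and in the figures, taken as the absolute log2 fold change divided by the square root of edgeR's F statistic. The highest member of each family by this measure of level per length was Sema7a (21.3), Plxnd1, Nrp2 (24.6), Slit3 (13.95), Robo4 (4.78), Ntn4 (3.71), Unc5b (14.3), Epha2 (8.55), Ephb4 (7.10), Efna1 (3.94) and Efnb1 (6.84) CPM per kb as means over the 10 mice. None of these 11 genes was called. The called members ran from 0.0585 CPM per kb for Dcc to 10.9 for Sema4a. Summed over each family, the level per length overlapped between young and aged mice in 9 of 11 families. The exceptions were the EphA receptors, at 13.9 to 14.8 CPM per kb in young and 9.59 to 13.5 in aged mice, and the ephrin-A ligands, at 8.48 to 10.7 and 4.97 to 7.36. The uncalled Epha2 made up 63.7 to 73.6% of the EphA sum in young and 58.8 to 74.8% in aged mice. Its mean went from 9.83 to 7.26 CPM per kb, that of Epha3 from 1.15 to 0.338 and that of Epha4 from 1.27 to 0.826.

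**Figure D2:**
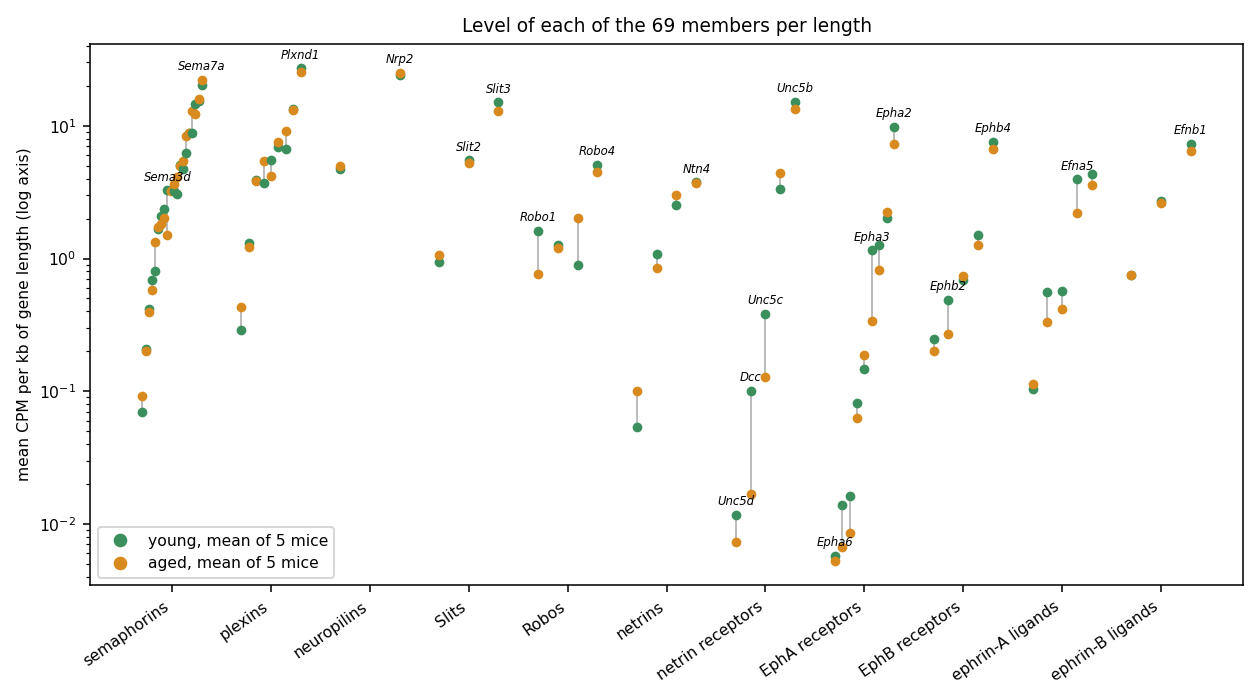
Mean CPM per kb of gene length (y axis, log scale) of each of the 69 members in young (green) and aged (orange) mice, by family, with a line joining both means. Plxnd1 is highest at 26.3 CPM per kb over all mice and Epha6 lowest at 0.00551, and the aged means of Dcc, Unc5c, Epha3 and Robo1 lie below the young means.

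Among the Eph receptors 3 fell in aged bone, and 11 tested Eph receptors had log2 fold changes from -1.76 to 0.34. Epha3, a receptor for ephrin-A ligands (ENSMUSG00000052504.7, chromosome 16 from 63543534 to 63864175), stood at 6.87, 12.98, 9.94, 11.6 and 8.76 CPM in young mice 1 to 5 and at 3.41, 3.995, 1.59, 2.27 and 3.41 CPM in aged mice 1 to 5. Every young mouse was above every aged mouse, with a fall from 10.03 ± 2.39 CPM in young to 2.94 ± 0.977 CPM in aged mice (SD, n = 5 mice per group; log2 change -1.76 with SE 0.24, adjusted p = 0.000982 in edgeR). Epha4, which binds ephrins of both classes, stood at 10.0, 12.1, 9.14, 10.9 and 8.98 CPM in young mice 1 to 5 and at 6.42, 6.24, 7.74, 5.29 and 7.56 CPM in aged mice 1 to 5. It fell by 0.62 on the log2 scale (SE 0.14, adjusted p = 0.0154 in edgeR), with no overlap between the groups, and its call ended without young 2 (adjusted p = 0.0528). Ephb2, a receptor for ephrin-B ligands, stood at 5.997, 5.46, 6.27, 5.90 and 7.09 CPM in young mice 1 to 5 and at 2.85, 4.35, 2.58, 3.42 and 3.74 CPM in aged mice 1 to 5. The groups did not overlap, and the log2 fold change was -0.85 (SE 0.16, adjusted p = 0.00653 in edgeR).

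The most abundant Eph receptors, Epha2 and Ephb4, did not pass the test. Epha2, which osteoclast precursors use with Efna2, stood at 44.7, 43.6, 51.1, 44.9 and 45.5 CPM in young mice 1 to 5 and at 31.98, 33.9, 29.99, 26.5 and 47.3 CPM in aged mice 1 to 5. Young mice lay at 43.6 to 51.1 CPM and aged mice at 26.5 to 47.3, with aged 5 alone among the young mice (log2 change -0.44 with SE 0.14, adjusted p = 0.0652 in edgeR). Without aged 5 Epha2 was called lower, at a log2 fold change of -0.59 (adjusted p = 0.00730), and it was also called with libraries scaled to their totals only (0.0320), no filter on low counts (0.0459), DESeq2 (0.0392) and the muscle covariate (0.0464). Ephb4, the receptor of Efnb2 on osteoblasts and veins, stood at 34.1, 30, 41.3, 29.3 and 40.3 CPM in young mice 1 to 5 and at 31, 27.5, 36.1, 24.98 and 34.6 CPM in aged mice 1 to 5. Its groups overlapped (log2 change -0.18 with SE 0.13, adjusted p = 0.404 in edgeR). Ephb3, another receptor for ephrin-B ligands, stood at 10.9, 8.51, 10.5, 8.68 and 10.98 CPM in young mice 1 to 5 and at 7.54, 8.37, 8.65, 8.62 and 8.98 CPM in aged mice 1 to 5. It was not called (log2 change -0.23, adjusted p = 0.220 in edgeR). The share of the EphA receptors' summed level per length that was Epha3 ran from 5.69 to 10.2% in young mice and from 1.91 to 3.98% in aged mice, and that of Ephb2 among the EphB receptors from 4.13 to 5.22% and from 1.97 to 4.04%.

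Of 4 tested ephrin-A ligands, which are tethered to the membrane by a lipid anchor, 1 fell. Efna5, which binds the receptors Epha3 and Epha4 (ENSMUSG00000048915.12, chromosome 17 from 62604184 to 62881317), stood at 19.7, 13.7, 16.9, 15.1 and 14.04 CPM in young mice 1 to 5 and at 9.66, 9.26, 7.74, 7.77 and 9.91 CPM in aged mice 1 to 5. Aged mice lay at 7.74 to 9.91 CPM, all below the young mice at 13.7 to 19.7 (log2 change -0.84 with SE 0.13, adjusted p = 0.00228 in edgeR). Efna1, the most abundant ephrin-A ligand per length, stood at 8.02, 7.37, 8.31, 6.74 and 8.88 CPM in young mice 1 to 5 and at 7.04, 6.60, 7.47, 4.52 and 7.18 CPM in aged mice 1 to 5. The groups overlapped (log2 change -0.26 with SE 0.15, adjusted p = 0.277 in edgeR). Efna4 stood at 1.0, 0.730, 1.04, 0.730 and 0.966 CPM in young mice 1 to 5 and at 0.475, 0.616, 0.341, 0.445 and 0.759 CPM in aged mice 1 to 5. Its aged mice were mostly lower, yet aged 5 lay above young 2 and 4 (log2 change -0.73 with SE 0.25, adjusted p = 0.0904 in edgeR), and 10.5% of its exon bases are shared with an antisense transcript, from which its reads cannot be told apart without strand. Efna2, an ephrin of osteoclasts, stood at 1.46, 1.01, 1.18, 1.42 and 1.01 CPM in young mice 1 to 5 and at 0.810, 0.974, 1.44, 0.492 and 0.759 CPM in aged mice 1 to 5. This ligand was not called (log2 change -0.46 with SE 0.26, adjusted p = 0.286 in edgeR).

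None of the 3 ephrin-B ligands, which cross the membrane and can signal back into their own cell, was called by edgeR (0 of 3 at an unadjusted p under 0.05, and neither Efnb1 nor Efnb2 with DESeq2 or limma-voom). Efnb1, the most abundant of them, stood at 30.2, 19.9, 33.1, 22.1 and 20.1 CPM in young mice 1 to 5 and at 19.02, 19.7, 21.6, 23.6 and 26.9 CPM in aged mice 1 to 5. Efnb2, the partner of Ephb4, stood at 18.9, 17.4, 21.95, 15.8 and 19.2 CPM in young mice 1 to 5 and at 17.01, 15.6, 23.02, 13.8 and 20.2 CPM in aged mice 1 to 5. Their log2 fold changes were -0.18 (SE 0.16, adjusted p = 0.504 in edgeR) and -0.06 (SE 0.14, adjusted p = 0.827 in edgeR), and young and aged mice overlapped in both. Efnb3 was at 2.38 ± 0.361 CPM in young and 2.37 ± 0.415 CPM in aged mice (SD, n = 5).

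The receptor gene Epha3 and its ligand gene Efna5, both called lower, are shown by the 250 bases before their RefSeq start sites, with Sema3d, another lower gene, and Plxnc1, a higher gene, for comparison. RefSeq start sites (GRCm38.p6) were at hand for 59 of the 69 members. Letters run 5′ to 3′ on the gene's strand, and capitals mark CG dinucleotides, the sites of DNA methylation. None of the 4 windows holds an exon annotated in GENCODE vM21.
Epha3, chr16:63864176-63864425, minus strand: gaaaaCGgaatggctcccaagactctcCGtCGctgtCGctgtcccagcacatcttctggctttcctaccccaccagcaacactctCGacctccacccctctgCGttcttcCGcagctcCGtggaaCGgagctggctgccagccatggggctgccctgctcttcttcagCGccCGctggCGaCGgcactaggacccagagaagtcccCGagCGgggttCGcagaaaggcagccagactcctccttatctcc
Efna5, chr17:62881318-62881567, minus strand: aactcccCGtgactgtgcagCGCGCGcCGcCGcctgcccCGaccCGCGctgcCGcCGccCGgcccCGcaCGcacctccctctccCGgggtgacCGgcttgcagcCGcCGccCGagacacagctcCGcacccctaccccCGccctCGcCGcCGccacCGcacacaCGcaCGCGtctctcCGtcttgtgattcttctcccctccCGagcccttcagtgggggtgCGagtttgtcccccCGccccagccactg
Sema3d, chr5:12382916-12383165, plus strand: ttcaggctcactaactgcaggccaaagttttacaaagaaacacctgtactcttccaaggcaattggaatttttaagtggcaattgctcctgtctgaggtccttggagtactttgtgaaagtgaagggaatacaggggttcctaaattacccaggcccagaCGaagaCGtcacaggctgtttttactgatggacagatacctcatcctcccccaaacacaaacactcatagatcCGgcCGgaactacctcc
Plxnc1, chr10:94944846-94945095, minus strand: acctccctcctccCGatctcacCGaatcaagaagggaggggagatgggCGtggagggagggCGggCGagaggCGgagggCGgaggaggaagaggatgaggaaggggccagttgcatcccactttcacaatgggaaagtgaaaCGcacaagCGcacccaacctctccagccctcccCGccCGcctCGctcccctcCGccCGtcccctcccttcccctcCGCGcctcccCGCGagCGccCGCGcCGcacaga

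The 4 windows held 16 CG dinucleotides in Epha3, 32 in Efna5, 4 in Sema3d and 22 in Plxnc1. As many as in Efna5 were found in 6.71% of the 18170 windows of all protein-coding genes in the table, and as many as in Sema3d in 79.2%. At least 10 were found in 7 of the 8 windows of lower members with a start site, in 69.3% of the 75 windows of all members and in 57.2% of those of all protein-coding genes. The 3 higher members had 6 windows, 4 of them of Sema4a, and 2 of the 6 held at least 10. The motif TATAAA was in 0 of the 8 windows of lower members and in 8.92% of all windows, CCAAT in 3 of 8 and 34.8%, and GGGCGG, which holds a CG itself, in 3 of 8 and 48.5%, each searched on both strands. In the 75 windows of all members the shares were 2.67% for TATAAA, 26.7% for CCAAT and 70.7% for GGGCGG. These counts describe the sequence alone.

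Dcc had the largest fall of the 63 tested members. This receptor, which draws cells towards netrins (ENSMUSG00000060534.16, chromosome 18 from 71253634 to 72351069), stood at 1.59, 1.59, 1.14, 1.46 and 0.825 CPM in young mice 1 to 5 and at 0.307, 0.219, 0.265, 0.140 and 0.177 CPM in aged mice 1 to 5. Young mice lay at 0.825 to 1.59 CPM and aged mice at 0.140 to 0.307 (from 1.32 ± 0.331 CPM in young to 0.222 ± 0.0668 CPM in aged mice, SD, n = 5 mice per group; log2 change -2.58 with SE 0.29, adjusted p = 0.000283 in edgeR). These are low levels, 6 to 70 counts per library. Unc5c, a receptor for repulsion by netrins (ENSMUSG00000059921.15, chromosome 3 from 141465216 to 141834924), stood at 7.51, 8.63, 9.63, 6.32 and 4.38 CPM in young mice 1 to 5 and at 3.02, 1.87, 2.12, 1.10 and 4.20 CPM in aged mice 1 to 5. Young mice lay at 4.38 to 9.63 CPM and aged mice at 1.10 to 4.20, without overlap (log2 change -1.57 with SE 0.32, adjusted p = 0.0127 in edgeR). Both calls held in each alternative that gave a value, which a filter of 1 CPM in 5 libraries did not for Dcc, with adjusted p up to 0.00151 for Dcc and 0.0392 for Unc5c.

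Unc5b, the receptor of this family with the highest level and known from vessels, stood at 101, 87.5, 109.6, 86.1 and 90.1 CPM in young mice 1 to 5 and at 67.5, 88.7, 71.5, 84.7 and 109 CPM in aged mice 1 to 5. Its groups overlapped (log2 change -0.17 with SE 0.13, adjusted p = 0.435 in edgeR). Unc5a was at 13.9 ± 4.51 CPM in young and 18.4 ± 2.69 CPM in aged mice (SD, n = 5; log2 change 0.40, adjusted p = 0.182 in edgeR). Dcc and Unc5c made up 0.315 to 0.699% and 1.15 to 2.62% of the summed level per length of the netrin receptors in young mice, and 0.0587 to 0.158% and 0.316 to 1.07% in aged mice.

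The netrins themselves were not called by edgeR (0 of 3 tested, with 1 of them, Ntn3, at an unadjusted p under 0.05, and 0 with DESeq2 or limma-voom). Ntn1, the founding secreted netrin, stood at 14.04, 15.6, 17.8, 14.6 and 17.9 CPM in young mice 1 to 5 and at 22.7, 19.4, 20.2, 9.41 and 22 CPM in aged mice 1 to 5. Aged 4 was the lowest of the aged mice, and without aged 4 it was called higher (log2 change 0.40, adjusted p = 0.0452 in edgeR, against 0.23 and 0.482 with all mice). Ntn4, a netrin of basement membranes, stood at 12.4, 13.1, 13.95, 14.99 and 15.5 CPM in young mice 1 to 5 and at 15.7, 15.8, 15.2, 6.53 and 15.7 CPM in aged mice 1 to 5. Aged 4 was again the lowest (log2 change -0.02, adjusted p = 0.953 in edgeR). Ntn3 stood at 5.20, 4.81, 5.26, 6.07 and 6.15 CPM in young mice 1 to 5 and at 3.44, 3.82, 5.01, 5.31 and 4.02 CPM in aged mice 1 to 5. Its log2 fold change was -0.35 (SE 0.15, adjusted p = 0.161 in edgeR), and it shares 89 exon bases with the more highly counted gene Tbc1d24.

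Robo1 fell to about 47.4% of its young level. This receptor for Slits (ENSMUSG00000022883.11, chromosome 16 from 72308306 to 73046095) stood at 30.5, 25.7, 29.7, 25.2 and 22.97 CPM in young mice 1 to 5 and at 14.05, 12.8, 10.1, 10.1 and 16.5 CPM in aged mice 1 to 5. Young mice lay at 22.97 to 30.5 CPM and aged mice at 10.1 to 16.5 (log2 change -1.08 with SE 0.14, adjusted p = 0.000896 in edgeR), and the call held in all 23 alternatives. Robo2, which follows Robo1 on chromosome 16 after 845.7 kb with no other protein-coding gene of the table between them, stood at 21.8, 19.4, 30.3, 19.96 and 16.7 CPM in young mice 1 to 5 and at 21.8, 15.6, 10.2, 27.1 and 26.5 CPM in aged mice 1 to 5. Its groups overlapped (log2 change -0.09 with SE 0.25, adjusted p = 0.848 in edgeR). The log2 ratio of Robo1 to Robo2 per mouse was 0.33 ± 0.209 in young and -0.61 ± 0.534 in aged mice (SD, n = 5; exact two-sided permutation test, p = 0.0159, adjusted p = 0.0212 over 4 pairs of neighbouring members), so that the changes of both genes differed.

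Robo3, a receptor that in neurons opposes the response to Slits, stood at 7.48, 4.001, 5.23, 3.61 and 10.4 CPM in young mice 1 to 5 and at 9.25, 8.57, 20.4, 20.4 and 10.9 CPM in aged mice 1 to 5. It was at 6.14 ± 2.81 CPM in young and 13.9 ± 5.98 CPM in aged mice (SD, n = 5), and the groups overlapped (log2 change 1.17 with SE 0.35, adjusted p = 0.0629 in edgeR). Robo3 was called higher without young 5 (0.0305), without aged 1 (0.0435) or aged 2 (0.0438), with DESeq2 (0.00458), limma-voom (0.0491), a filter of 1 CPM in 5 libraries (0.0463) and the marrow covariate (0.0304). Robo4, a receptor of endothelium that lies 0.6 kb from Robo3 on chromosome 9, stood at 24.2, 23.2, 27.1, 21.9 and 38.7 CPM in young mice 1 to 5 and at 21.9, 20.3, 28.6, 25.1 and 22.2 CPM in aged mice 1 to 5. It was not called (log2 change -0.19 with SE 0.15, adjusted p = 0.449 in edgeR). The log2 ratio of Robo4 to Robo3 was 2.22 ± 0.404 in young and 0.86 ± 0.440 in aged mice, with no overlap (exact two-sided permutation test, p = 0.00794, the smallest the design allows, adjusted p = 0.0212). Of the summed level per length of the 4 Robos, Robo1 made up 12.4 to 21.1% in young and 6.17 to 11.9% in aged mice, and Robo3 7.16 to 13.6% and 17.7 to 31.1%.

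None of the 3 Slits, the ligands of Robo1 and Robo2, was called by edgeR (0 of 3 at an unadjusted p under 0.05, and 0 with DESeq2 or limma-voom). Slit2, the Slit with the most counts, stood at 129, 123, 169, 139 and 138 CPM in young mice 1 to 5 and at 139, 128, 113, 93.7 and 195 CPM in aged mice 1 to 5. Slit3, the Slit with the highest level per length and a factor of bone formation, stood at 95.6, 82.8, 104, 85.1 and 89.1 CPM in young mice 1 to 5 and at 73.99, 86.5, 63.6, 61.2 and 105 CPM in aged mice 1 to 5. In both, aged mice spread on either side of the young mice (log2 fold change of -0.06, standard error 0.17, and -0.23, standard error 0.14, with edgeR adjusted p = 0.847 and 0.331). Slit1 stood at 6.23, 4.73, 5.30, 5.78 and 5.75 CPM in young mice 1 to 5 and at 3.97, 4.81, 7.24, 9.90 and 5.71 CPM in aged mice 1 to 5. Its change was not called either (log2 change 0.19, adjusted p = 0.611 in edgeR).

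**Figure D3:**
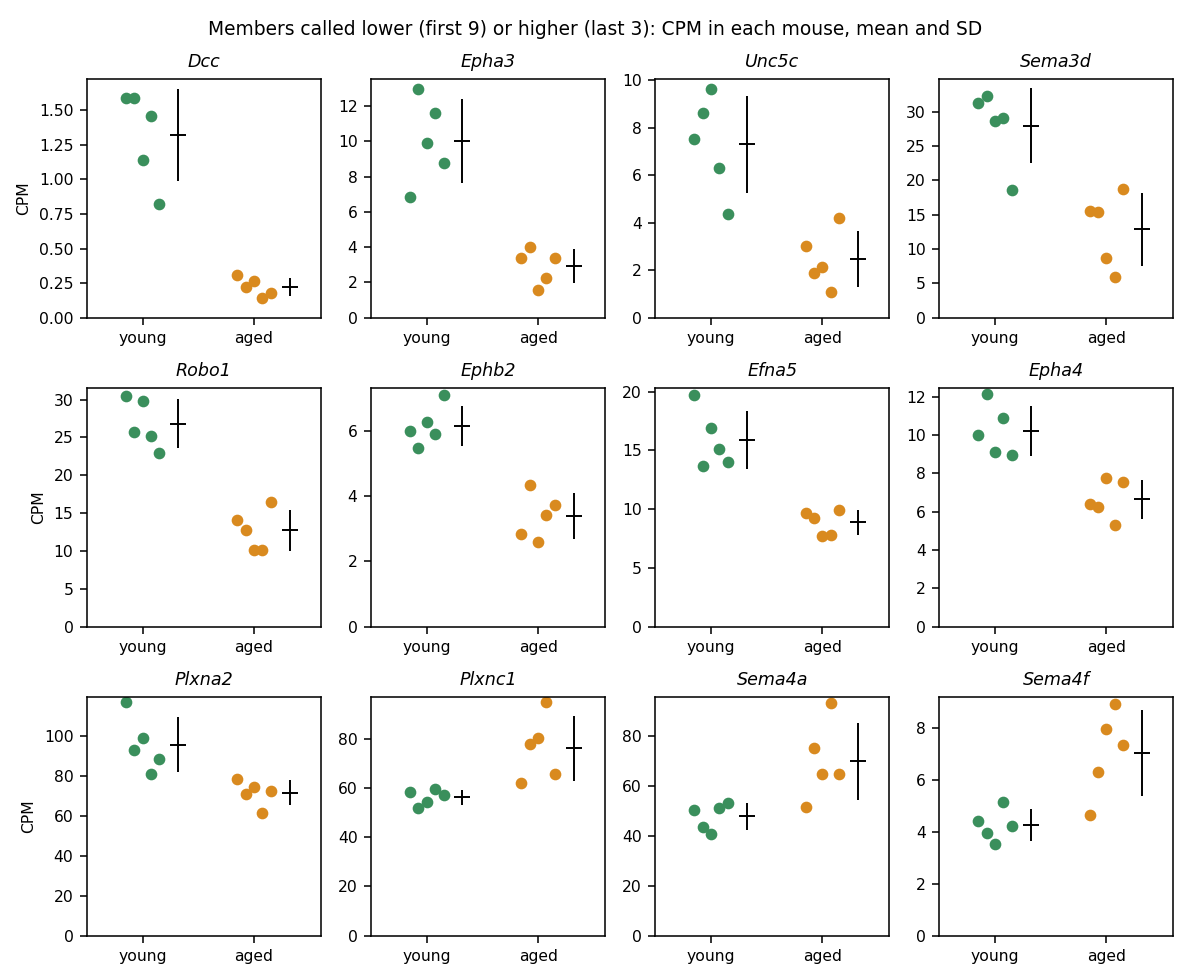
CPM (y axis, from 0) of the 12 called members in each of the 5 young (green) and 5 aged (orange) mice, with the mean and SD beside each group. In Dcc, Epha3, Unc5c, Robo1, Ephb2, Efna5, Epha4, Plxna2 and Plxnc1 the groups do not overlap, and in Sema3d, Sema4a and Sema4f they do.

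Among the 20 semaphorins 1 secreted semaphorin fell and 2 membrane semaphorins rose. Sema3d, of the secreted class 3 that acts through neuropilins (ENSMUSG00000040254.11, chromosome 5 from 12383385 to 12588948), stood at 31.3, 32.3, 28.6, 29.1 and 18.7 CPM in young mice 1 to 5 and at 15.5, 15.4, 8.65, 5.92 and 18.8 CPM in aged mice 1 to 5. Young 5 was the lowest young mouse at 18.7 CPM, and aged mice lay at 5.92 to 18.8 (log2 change -1.12 with SE 0.28, adjusted p = 0.0369 in edgeR). The call ended without young 1, 2, 3 or 4 or aged 3 (adjusted p of 0.0625 to 0.0971), with the muscle covariate (0.0755) and with no filter on low counts (0.101). Sema3a, which protects bone by restraining osteoclasts and is the next protein-coding gene on chromosome 5, stood at 10.4, 9.26, 9.59, 9.34 and 9.02 CPM in young mice 1 to 5 and at 9.16, 7.51, 8.42, 8.05 and 7.21 CPM in aged mice 1 to 5. It was not called (log2 change -0.24 with SE 0.11, adjusted p = 0.180 in edgeR). The log2 ratio of Sema3d to Sema3a was 1.53 ± 0.285 in young and 0.56 ± 0.746 in aged mice (exact two-sided permutation test, p = 0.0159, adjusted p = 0.0212), with adjusted p = 0.0635 without any one of young 1 to 4. For the remaining pair of neighbours, the log2 ratio of Sema3a to Sema3e was 2.33 ± 0.299 in young and 2.20 ± 0.531 in aged mice (exact two-sided permutation test, p = 0.595). Without aged 4 the adjusted p of that pair was 0.0397.

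Sema4a, a membrane semaphorin of immune cells and vessels, stood at 50.4, 43.4, 40.6, 50.99 and 53.1 CPM in young mice 1 to 5 and at 51.5, 75.2, 64.7, 92.97 and 64.7 CPM in aged mice 1 to 5. Aged mice lay at 51.5 to 92.97 CPM and overlapped the young mice at 40.6 to 53.1 (log2 change 0.55 with SE 0.14, adjusted p = 0.0334 in edgeR). Its call ended without young 1 to 4 or aged 2, 3 or 4, each left out in turn (adjusted p of 0.0504 to 0.0951). Sema4f stood at 4.43, 3.98, 3.53, 5.17 and 4.24 CPM in young mice 1 to 5 and at 4.64, 6.32, 7.96, 8.94 and 7.36 CPM in aged mice 1 to 5. The groups overlapped, at 3.53 to 5.17 CPM in young and 4.64 to 8.94 in aged mice (log2 change 0.72 with SE 0.17, adjusted p = 0.0256 in edgeR), and the call ended without young 1, 2 or 3 or aged 3 (0.0511 to 0.0742). Scaling libraries to their totals only, which moved the median of all genes from 0.01 to -0.16 in log2 terms, ended the calls of Sema4a, Sema4f and Plxnc1 (log2 fold changes of 0.38, 0.53 and 0.27, adjusted p = 0.236, 0.142 and 0.331).

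Sema4d and Sema7a, the other semaphorins with the highest levels, were not called. Sema4d, which osteoclasts use to restrain osteoblasts, stood at 122, 109, 127, 122 and 111 CPM in young mice 1 to 5 and at 106, 128, 108, 141 and 131 CPM in aged mice 1 to 5. Sema7a, which is anchored by a lipid and binds Plxnc1 and integrins, stood at 59.5, 62.2, 83.5, 62.1 and 69.4 CPM in young mice 1 to 5 and at 64.9, 74.6, 64.04, 62.7 and 101 CPM in aged mice 1 to 5. Their log2 fold changes were 0.05 (SE 0.10, adjusted p = 0.782 in edgeR) and 0.13 (SE 0.14, adjusted p = 0.610 in edgeR), and the groups overlapped. The 14 semaphorins not described by mouse had log2 fold changes from -0.25 in Sema4b to 0.43 in Sema6c.

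Of 9 plexins 1 fell and 1 rose. Plxna2, a receptor of class 3 and class 6 semaphorins (ENSMUSG00000026640.12, chromosome 1 from 194618218 to 194816869), stood at 117, 92.9, 99.03, 80.6 and 88.4 CPM in young mice 1 to 5 and at 78.1, 70.96, 74.1, 61.6 and 72.6 CPM in aged mice 1 to 5. Young mice lay at 80.6 to 117 CPM and aged mice at 61.6 to 78.1, without overlap (log2 change -0.42 with SE 0.11, adjusted p = 0.0364 in edgeR). The call ended without young 1, 2 or 3 or aged 2, 3, 4 or 5, each left out in turn (adjusted p of 0.0581 to 0.0779). Plxnc1, the receptor of Sema7a (ENSMUSG00000074785.5, chromosome 10 from 94790866 to 94944835), stood at 58.4, 51.99, 54.1, 59.4 and 56.99 CPM in young mice 1 to 5 and at 62.01, 77.7, 80.3, 94.9 and 65.6 CPM in aged mice 1 to 5. Aged mice lay at 62.01 to 94.9 CPM, all above the young mice at 51.99 to 59.4 (log2 change 0.44 with SE 0.12, adjusted p = 0.0360 in edgeR). Its call ended without young 1 to 5 or aged 2, 3 or 4, each left out in turn (0.0505 to 0.102) and in the fit blocked on replicate number (0.0542).

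Plxnd1, a plexin of endothelium and the member with the highest level per length, stood at 208, 164, 238, 161 and 215 CPM in young mice 1 to 5 and at 156, 172, 188, 222 and 192 CPM in aged mice 1 to 5. Plxna1, a co-receptor of class 3 semaphorins that also acts in osteoclasts, stood at 61.1, 51.1, 72.2, 58.1 and 70.8 CPM in young mice 1 to 5 and at 57.8, 63.7, 59.5, 103 and 58.5 CPM in aged mice 1 to 5. Plxnb1, the receptor of Sema4d, stood at 42.6, 30.7, 44.4, 31.4 and 36.99 CPM in young mice 1 to 5 and at 30.1, 30.9, 35.5, 39.7 and 46.6 CPM in aged mice 1 to 5. In these 3 plexins the groups overlapped, and the log2 fold changes were -0.08, 0.13 and -0.03 (standard errors 0.13, 0.16 and 0.14, edgeR adjusted p = 0.726, 0.649 and 0.929). Plxna1 shares 10.7% of its exon bases with an antisense transcript. The uncalled plexins with the largest changes were Plxna4, at 52.1 ± 11.9 CPM in young and 76.4 ± 16.6 CPM in aged mice (SD, n = 5; edgeR adjusted p = 0.0668), and Plxnb3, at 1.88 ± 0.347 CPM in young and 2.82 ± 1.04 CPM in aged mice (adjusted p = 0.141).

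The neuropilins Nrp1 and Nrp2, co-receptors of class 3 semaphorins and of the growth factor VEGF, were not called. Nrp1 stood at 48.3, 41.97, 55.96, 39.04 and 46.4 CPM in young mice 1 to 5 and at 50.03, 48.4, 48.04, 47.9 and 48.9 CPM in aged mice 1 to 5. Nrp2 stood at 326, 266, 363, 270.3 and 201 CPM in young mice 1 to 5 and at 286, 279, 190.4, 272 and 458 CPM in aged mice 1 to 5. Aged mice ranged from 47.9 to 50.03 CPM in Nrp1 and from 190.4 to 458 CPM in Nrp2, overlapping the young mice in both. The log2 fold changes were 0.07 (SE 0.10, adjusted p = 0.692 in edgeR) and 0.06 (SE 0.21, adjusted p = 0.890 in edgeR).

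All 9 lower members are long genes. Their median genomic span, from the start to the end given in the table, was 277 kb, against 46.3 kb over the 63 tested members and 14.0 kb over all tested genes. Of 29 tested members spanning more than 100 kb, 9 were lower and 1 was higher, and of 34 members up to 100 kb, none was lower and 2 were higher. Among all tested genes the lower share was 6.17% of the 2236 that span more than 100 kb and 3.32% of the others, and the higher share was 6.62% and 3.34%. Dcc spans 1097 kb and Robo1 738 kb, while Slit3 and Robo2, at 587 and 520.0 kb, were among the long members that were not called. This comparison was chosen after the calls were seen.

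**Figure D4:**
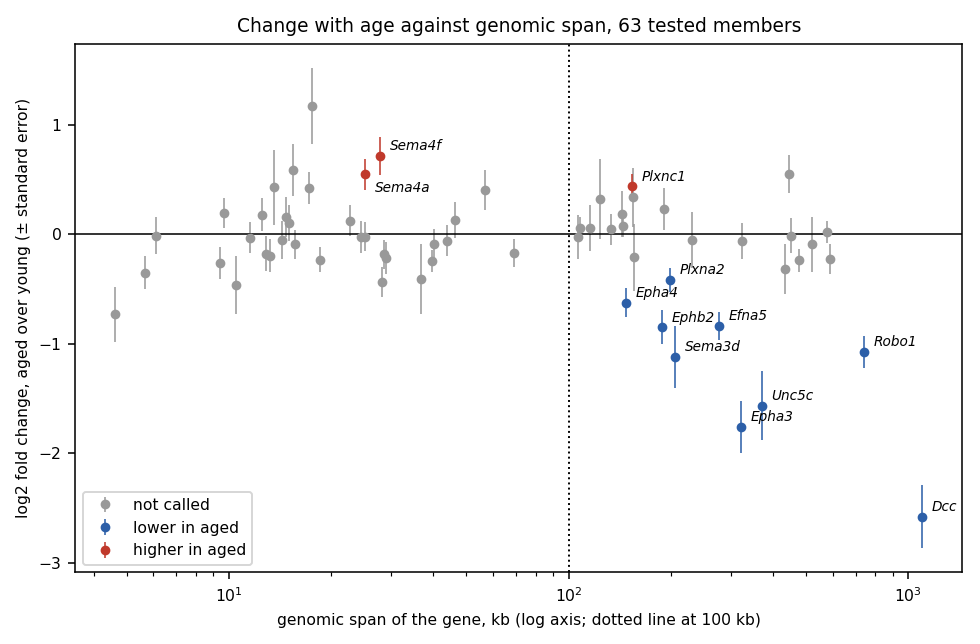
Log2 fold change of aged over young bone (y axis, bars are standard errors) against the genomic span in kb (log axis) of the 63 tested members. All 9 members called lower (blue) lie to the right of the dotted line at 100 kb, beside 19 uncalled members and Plxnc1.

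Genes that act with these ligands and receptors were read from 4 lists of 83 genes in all, of which 81 were tested. In aged bone 10 were lower and 6 higher, 12.3% and 7.41% of those tested, beside 3.61% and 3.68% of all tested genes, and the median log2 fold change was 0.10. Of 28 genes of semaphorin signalling 3 were lower and 3 higher, and of 17 of Slit and Robo signalling 1 was lower and none higher. Of 17 tested genes of netrin and repulsive guidance signalling 4 were lower and 3 higher, and of 19 of Eph and ephrin signalling 2 were lower and none higher.

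The lower genes with the smallest p were Dpysl3, Ndnf, Chn1, Cd72 and Flrt2. Dpysl3, a collapsin response mediator that carries semaphorin signals to the cytoskeleton, stood at 139, 121, 138, 117 and 105 CPM in young mice 1 to 5 and at 63.6, 72.2, 52.4, 44.4 and 84.6 CPM in aged mice 1 to 5. It fell with no overlap between the groups (log2 change -0.96 with SE 0.16, adjusted p = 0.00348 in edgeR). Chn1, a GTPase-activating protein for Rac downstream of Epha4, stood at 7.54, 8.35, 8.31, 6.51 and 6.74 CPM in young mice 1 to 5 and at 3.83, 3.52, 2.28, 2.39 and 5.01 CPM in aged mice 1 to 5. Its log2 fold change was -1.13 (SE 0.20, adjusted p = 0.00516 in edgeR). Ndnf, a secreted protein on the list of Slit and Robo signalling, fell by 0.99 on the log2 scale (adjusted p = 0.00435). Flrt2, a membrane protein that binds Unc5 receptors, fell by 1.06 (adjusted p = 0.0198), and its call ended without young 2 (0.0564) or aged 3 (0.0509). Cd72, a receptor of B cells for Sema4d, fell by 0.78 (adjusted p = 0.00545). The other 5 lower genes were Flrt3, Ptpn13, Pak1, Neo1 and Chl1, and Neo1 is a netrin receptor related to Dcc.

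Among the higher genes were Ntng2, L1cam, Dscam and Mical1. Dscam, an adhesion molecule that also binds netrin, stood at 0.359, 0.302, 0.173, 0.355 and 0.401 CPM in young mice 1 to 5 and at 1.17, 1.09, 1.40, 4.89 and 0.910 CPM in aged mice 1 to 5. Every aged mouse was above every young mouse (log2 change 2.55 with SE 0.49, adjusted p = 0.0105 in edgeR), and without aged 4 the log2 fold change was 1.81. Ntng2, a netrin-like protein anchored by a lipid, stood at 35.3, 27.96, 29.6, 32.8 and 32 CPM in young mice 1 to 5 and at 39.7, 50.4, 52.6, 56.4 and 44.2 CPM in aged mice 1 to 5. L1cam, an adhesion molecule that pairs with Nrp1, stood at 12.2, 9.64, 9.70, 11.2 and 11.3 CPM in young mice 1 to 5 and at 15.3, 19.04, 15.5, 17.5 and 14.8 CPM in aged mice 1 to 5. Both rose with no overlap, with log2 changes of 0.63 and 0.61 (adjusted p = 0.00524 and 0.00665 in edgeR), and neither was called when libraries were scaled to their totals only (0.102 and 0.143). Mical1, an actin-oxidizing enzyme bound by plexins, rose by 0.39 (adjusted p = 0.0419), and its call ended in 12 of 23 alternatives, among them without young 2, 3, 4 or 5 or aged 2, 3, 4 or 5 (0.0520 to 0.122).

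**Figure D5:**
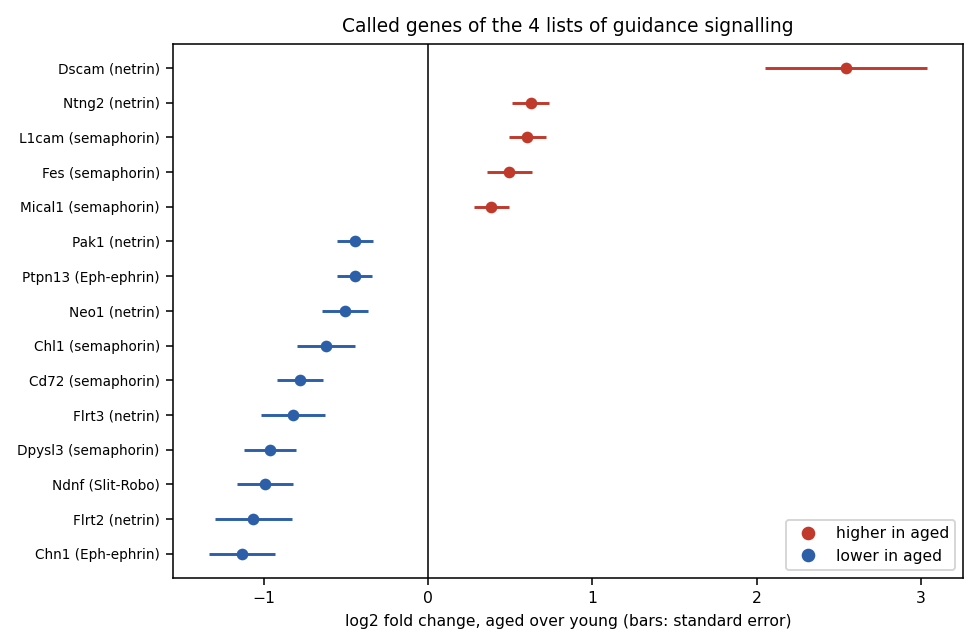
Log2 fold change of aged over young bone (x axis, bars are standard errors) of 15 of the 16 called genes of the 4 lists of guidance signalling, with the list in brackets. The 10 genes called lower (blue) reach -1.13 in Chn1, and the 5 plotted genes called higher (red) reach 2.55 in Dscam.

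The members too low to be tested were Ntn5, Unc5d, Epha5, Epha6, Epha8 and Efna3, with 0 to 17 counts per library. The 25 tested members not described by mouse above had log2 fold changes from -0.41 in Epha10 to 0.58 in Plxnb3, and none was called.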

How the data were processed

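RNA-seq of flushed femur was measured in 1 library per mouse. Per the methods of the study, RNA was depleted of ribosomal RNA and then selected for poly-A tails, and paired reads were trimmed with Cutadapt, aligned with STAR to GRCm38.p6 and assigned to genes with featureCounts. The authors deposited raw counts per gene, with no normalization. The labels name hg38, while the gene identifiers are those of mouse and 38248 of 38962 matched GENCODE vM21 in start and end. The strand setting of the counting was not stated in the methods or labels.

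Groups came from the labels. Counts were tested with edgeR 4.0.16 (filterByExpr with a minimum count of 10, TMM, robust quasi-likelihood fit, Benjamini-Hochberg adjustment over 22088 genes). Levels are CPM, and CPM per kb uses the gene length in the table. Single values were compared by exact permutation over 126 splits of the mice, whose smallest p is 0.00794. Libraries held 33447009 to 40395050 counts in young and 31788232 to 45075335 in aged mice. The scripts were tested on simulated data.

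The members and lists were chosen with earlier results of these data known. Values by mouse are given for called members, for the highest member per length and the 2 smallest p in each family, and for known ligand and receptor genes of bone. Of the 4 signalling lists up to 5 genes per direction are named, and 1 gene called higher is counted but not reported here. The 23 alternatives were scaling by total counts, by RLE size factors, by upper quartile or by TMM with the gene Gm26917 left out, no filter or a filter of 1 CPM in 5 libraries, DESeq2 1.42.0, limma-voom (limma 3.58.1), a 1.5-fold minimum or an adjusted p of at most 0.1 as the call, a replicate block, muscle or marrow markers as a covariate, and each mouse left out. The comparison by genomic span and that of neighbouring pairs were added after seeing the data. The labels give each mouse as a sample, and p-values measure the spread between these mice.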

Additional observations from a re-analysis of the deposited data

Results flagged for a closer look

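Each age was checked for the 38 members described by mouse and for the 5 called genes per direction with the smallest p on the signalling lists. Of these 96 groups of 5 mice, 7 held a mouse whose gap to the nearest other mouse exceeded 0.71 of the group's range. This is Dixon's limit, which chance passes in about 1 of 20 groups. Aged 4 was that mouse in 4 of the 7. It was low in Ntn1, at 9.41 CPM with the next aged mouse at 19.4, and in Ntn4, at 6.53 CPM with the next at 15.2. It was high in Plxna1, at 103 CPM with the next at 63.7, and in Dscam, at 4.89 CPM with the next at 1.40. Young 5 was low in Sema3d, at 18.7 CPM with the next young mouse at 28.6, and in Cd72, at 19.3 CPM with the next at 28.2. Young 3 was high in Epha2, at 51.1 CPM with the next at 45.5.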

How the results depend on the processing

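The count of members called lower stayed between 6 and 11 under the alternatives, against 9, and no call changed direction. Robo1, Dcc, Unc5c, Epha3, Ephb2 and Efna5 were called in every alternative that gave a value. The 3 higher members became 0 with total counts alone, 5 with DESeq2, 1 with a 1.5-fold minimum, 6 at an adjusted p of at most 0.1, 5 with the marrow covariate and 0 to 6 with 1 mouse left out (0 without young 1, 2 or 3 or aged 3, 1 without young 4, 6 without young 5). Of the signalling lists, the 6 higher genes became 2, 10, 10 and 13 with total counts, DESeq2, the 0.1 threshold and the marrow covariate, and 3 to 7 with 1 mouse left out (3 without young 2, young 3 or aged 3), and the 10 lower genes became 4 to 9 (4 without young 2 or aged 3, 5 without young 3). Over all genes, the 812 higher became 285, 1545, 1608 and 1783 in the same order and 300 to 856 with 1 mouse left out (300 without young 2, 366 without young 4, 470 without aged 3). The 798 lower became 1283 with DESeq2, 1483 at the 0.1 threshold, 1318 with the marrow covariate and 386 to 830 with 1 mouse left out (386 without young 2, 448 without young 4, 479 without aged 3). Scaling by total counts gave 285 higher against 916 lower calls over all genes and moved the median log2 change from 0.01 to -0.16. The cause of these moves was not tested. The labels do not say what a replicate number stands for. The deviations from the group means of mice with the same number correlated at -0.15, 0.04, 0.17, 0.16 and -0.08. Only number 3 matched best with itself. Such correlations cannot show whether these mice share more than the number. With the replicate block 2 members were higher and 9 lower, 6 and 8 genes of the lists, and 957 and 675 of all genes. Counts of 6 to 70 per library stand behind Dcc, and 6 members were too low to test.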
